A study of Mus musculus with 9 samples.

Results

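The BCL2 family and the death ligand Fasl were followed in naive CD4+ T cells from mouse spleen. The set held 10 genes of 55487 gene IDs in the deposited tables, chosen by name: the survival genes Mcl1, Bcl2 and Bcl2l1 (BCL-XL), the BH3-only genes Bcl2l11 (BIM), Bbc3 (PUMA), Bad and Pmaip1 (NOXA), the effectors Bax and Bak1, and Fasl. All 10 had counts in every library and passed the filter on low counts. Wild-type C57BL6/J mice were given neutralizing antibody to IL-1b for 10 consecutive days (anti-IL-1b, 3 libraries), were given MCC950 for 10 consecutive days (3 libraries), or were left without treatment (untreated, 3 libraries). IL-1b is an inflammatory cytokine, and MCC950 is a small-molecule inhibitor of NLRP3, the inflammasome sensor upstream of IL-1b maturation. The labels give no dose, age, sex, vehicle or isotype control, gate or batch, and do not say which mice gave which library, so that p-values measure only how far these libraries scatter, in part perhaps technically. Both agents were set against the same 3 untreated libraries.

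Mitochondrial apoptosis is set by binding among these proteins. BCL2, MCL1 and BCL-XL hold BAX and BAK in check; BH3-only proteins occupy the survival proteins, and some also activate BAX and BAK, which then open the outer mitochondrial membrane and release cytochrome c. Naive T cells are known to live on BCL2, kept up by IL-7 signals, and on MCL1, a short-lived protein, against BIM. FAS ligand acts outside the cell, on the receptor FAS, through caspase-8.

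In anti-IL-1b libraries 4 of the 10 genes fell against untreated libraries (Mcl1, Bbc3, Pmaip1 and Fasl) and 2 rose (Bcl2 and Bad). In MCC950 libraries 4 fell (Mcl1, Bbc3, Pmaip1 and Fasl) and 2 rose (Bax and Bad). A call was an adjusted p under 0.05 in edgeR's quasi-likelihood fit, adjusted by Benjamini-Hochberg across the 13374 genes tested. These are common events in the data: for anti-IL-1b against untreated libraries 34.0% of all tested genes were called, 18.5% as lower and 15.4% as higher, and for MCC950 against untreated libraries 36.8% were called, 19.1% as lower and 17.7% as higher. The median log2 fold change of the 10 genes was -0.06 with anti-IL-1b and -0.04 with MCC950, beside 0.00 and 0.01 over all genes tested. In each comparison its 6 called members had libraries that did not overlap those of the untreated group. The 4 uncalled members with anti-IL-1b, Bcl2l1, Bcl2l11, Bax and Bak1, all overlapped it. With MCC950 the uncalled Bcl2 and Bak1 overlapped it, while the uncalled Bcl2l1 and Bcl2l11 did not. Libraries did not overlap for 43.2% of all tested genes with anti-IL-1b and 47.3% with MCC950. Those shares cover called and uncalled genes, so the called members alone cannot be set against them. At least 2-fold falls with a call were rarer, at 2.81% of all genes in anti-IL-1b and 2.84% in MCC950 libraries. Between the agents, anti-IL-1b over MCC950, Bcl2 was higher and Mcl1 and Bax were lower, where 13.2% of all genes were called, 6.13% as higher and 7.11% as lower.

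**Figure D1:**
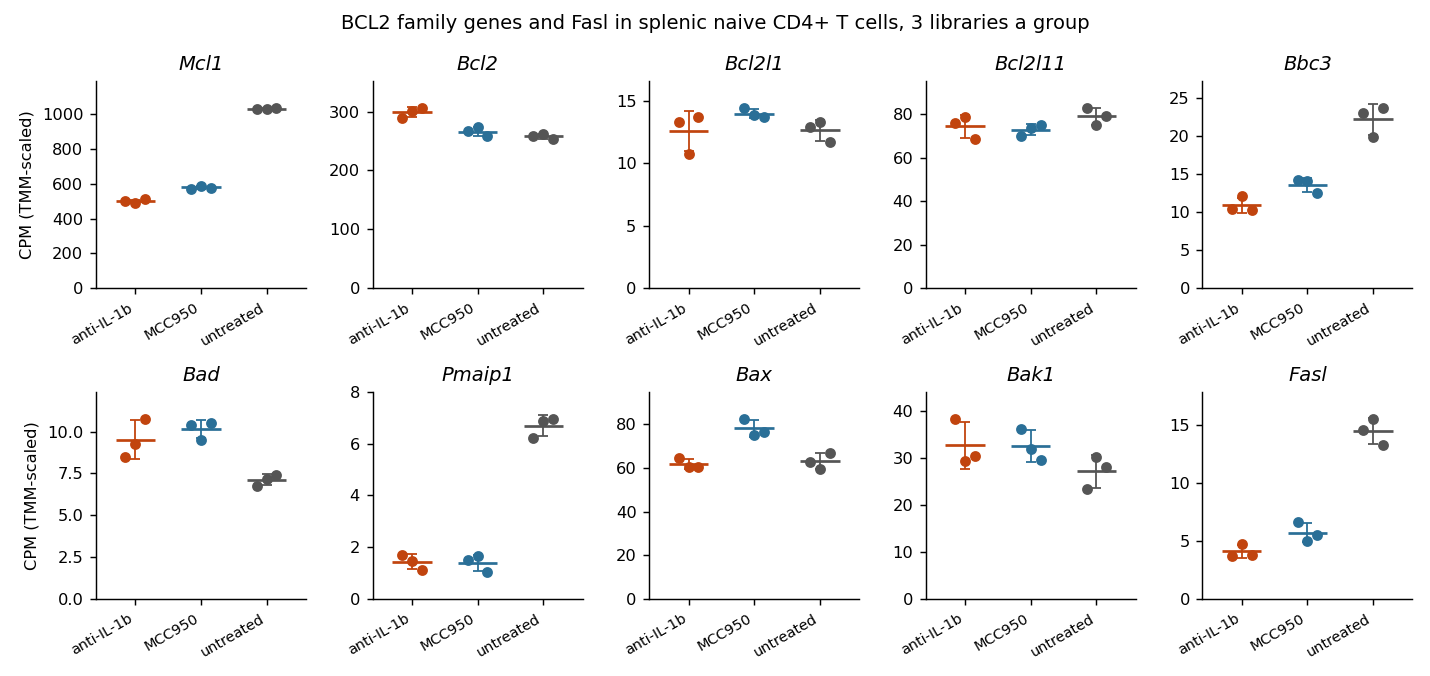
CPM (counts scaled to library totals with TMM factors) of the 10 genes in each library; each panel has its own axis from 0, and points are libraries, wide bars means and error bars SD (n = 3 each). Mcl1, Bbc3, Pmaip1 and Fasl lie lower in every anti-IL-1b and MCC950 library than in any untreated library, while Bcl2l11 keeps within 68.5 to 82.8 CPM throughout.

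The sequence around an annotated start of 4 of these genes is shown because 3 of them (Mcl1, Fasl and Bbc3) fell in both treated groups and the fourth, Bcl2l11, did not pass the test in either. RefSeq held such windows, 250 bases before to 50 after an annotated start, for 9 of the 10 genes (build GRCm38.p6). Each is printed 5′ to 3′ on the gene's strand, with motif matches in capitals. Bbc3 had 3 windows, 2 of them with a match, and Bcl2l11 had 2 windows, 1 of them with a match. For these genes the window with the most matched motifs is printed. The printed Bbc3 window belongs to an internal start and lies inside the gene's span (chr7:16308393-16318205).
Mcl1, chr3:95658471-95658770, + strand: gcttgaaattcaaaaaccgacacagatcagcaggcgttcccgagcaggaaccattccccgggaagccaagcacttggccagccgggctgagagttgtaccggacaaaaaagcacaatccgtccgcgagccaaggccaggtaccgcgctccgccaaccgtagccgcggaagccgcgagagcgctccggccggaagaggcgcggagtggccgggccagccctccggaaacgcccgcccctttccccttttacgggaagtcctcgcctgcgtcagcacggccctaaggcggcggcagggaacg
Fasl, chr1:161788446-161788745, - strand: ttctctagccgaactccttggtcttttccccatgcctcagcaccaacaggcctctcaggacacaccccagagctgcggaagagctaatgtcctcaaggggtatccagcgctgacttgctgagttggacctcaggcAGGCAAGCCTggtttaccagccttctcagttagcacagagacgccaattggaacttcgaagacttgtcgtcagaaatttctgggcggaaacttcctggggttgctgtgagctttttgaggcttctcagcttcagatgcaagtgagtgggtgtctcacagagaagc
Bbc3, chr7:16310011-16310310, + strand: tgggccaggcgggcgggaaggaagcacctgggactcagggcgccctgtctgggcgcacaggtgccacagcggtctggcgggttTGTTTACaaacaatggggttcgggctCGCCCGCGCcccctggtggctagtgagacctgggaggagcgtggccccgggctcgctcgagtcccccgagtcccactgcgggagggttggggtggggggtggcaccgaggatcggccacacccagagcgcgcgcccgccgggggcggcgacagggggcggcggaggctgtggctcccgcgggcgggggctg
Bcl2l11, chr2:128125788-128126087, + strand: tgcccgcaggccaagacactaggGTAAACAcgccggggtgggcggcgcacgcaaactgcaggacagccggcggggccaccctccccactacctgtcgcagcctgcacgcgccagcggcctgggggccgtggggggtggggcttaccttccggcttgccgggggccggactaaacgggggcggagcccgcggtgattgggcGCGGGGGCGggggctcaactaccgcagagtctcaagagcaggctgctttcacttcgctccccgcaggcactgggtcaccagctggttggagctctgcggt
In the Fasl window the capitals mark a p53 half-site at -115 to -106 from the start. In the Bbc3 window they mark a FOXO motif at -167 to -161 and an EGR motif at -141 to -133, and in the Bcl2l11 window a FOXO motif at -227 to -221 and an EGR motif at -50 to -42. The Mcl1 window held none of the letters searched. These were, on both strands, AP-1 (TGANTCA), CRE (TGACGTCA), EGR (GCGNGGGCG), FOXO (GTAAACA), a heat shock element (GAA, TTC and GAA, each 2 bases apart), the NFAT core (TGGAAA) and a p53 half-site, and no printed matches overlapped. Over 32851 such windows of all genes, matches stood in 7.81% for AP-1, 1.79% for CRE, 5.55% for EGR, 3.65% for FOXO, 0.603% for the heat shock element, 21.4% for NFAT and 8.36% for the p53 half-site. Among the other windows of the 9 genes searched, a further Bbc3 start had an EGR motif at -49 to -41 and Bax had a p53 half-site at -201 to -192. The shares over all genes are per window, without picking by matches, so the picked Bbc3 and Bcl2l11 windows cannot be set against them directly. A match describes letters only.

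Libraries held 14775375 to 16676626 expected counts in the anti-IL-1b group, 16769960 to 18497827 in the MCC950 group and 17335367 to 21394797 in the untreated group, so that 3 counts equal 0.148 to 0.197 CPM. Markers of naive CD4 T cells were all present, at summed levels of 8594 to 8636, 7969 to 8021 and 8640 to 8724 CPM in anti-IL-1b, MCC950 and untreated libraries, in that order here and in the rest of this paragraph. Of these 12 markers, 3 were higher and 3 lower with anti-IL-1b (median log2 change 0.01), and 3 higher and 6 lower with MCC950 (median -0.08). Heat shock and immediate-early stress genes, 18 in all, Hspa1a and Fos among them, summed to 6252 to 6397, 7297 to 7446 and 27278 to 27624 CPM, with 18 of 18 lower in either treated group. Summed B cell markers were 492 to 511, 484 to 506 and 325 to 345 CPM, with 14 of 15 higher in either treated group. Neutrophil markers summed to 40.7 to 42.0, 19.0 to 22.2 and 1.10 to 1.34 CPM, with 8 of 13, among them Ltf and S100a8, at 0 counts in all untreated libraries. Of the 10 neutrophil markers tested, 10 were higher with anti-IL-1b and 8 with MCC950. CD8 and NK cell markers summed to 97.7 to 107, 101 to 106 and 67.2 to 74.3 CPM; of 8 tested, 4 were higher and 1 lower with anti-IL-1b and 3 higher and 0 lower with MCC950. Monocyte, macrophage and dendritic cell markers summed to 26.2 to 27.2, 27.0 to 29.9 and 40.6 to 47.0 CPM, a sum in which Cebpb alone averaged 5.33, 6.29 and 33.3 CPM. Of 8 tested, 4 were higher and 2 lower with anti-IL-1b (median log2 change 1.75), and 4 higher and 1 lower with MCC950 (median 1.41), with Lyz2 among those higher in both; Cebpb and Lyz2 are named here after their values were seen. Red cell markers summed to 4.38 to 5.0, 5.92 to 9.69 and 0.122 to 0.445 CPM, with 4 of 4 tested higher in either treated group. What part these shifts have in any result was not tested, and in bulk RNA fewer cells of a type and less RNA per cell cannot be told apart. With upper-quartile scaling the calls split into 2687 higher and 1941 lower (anti-IL-1b) and 2859 and 2211 (MCC950), and with library totals into 3929 and 1344 (anti-IL-1b) and 4009 and 1587 (MCC950), against 2066 higher and 2479 lower (anti-IL-1b) and 2369 and 2552 (MCC950) with TMM. Over all genes the median log2 change stood at 0.13 (anti-IL-1b) and 0.12 (MCC950) with library totals.

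Mcl1, whose protein restrains BAK and binds BIM and NOXA, was the most abundant of the 10 transcripts in every library. Mcl1 (chr3:95658788-95663176, mm10, + strand) had 498, 492 and 509 CPM in the anti-IL-1b libraries, 572, 587 and 578 CPM in the MCC950 libraries and 1027, 1027 and 1034 CPM in the untreated libraries. No group overlapped another, and the anti-IL-1b libraries were the lowest. The means were 499.7 ± 8.81, 579 ± 7.74 and 1029 ± 4.11 CPM (SD, n = 3 each) in anti-IL-1b, MCC950 and untreated libraries. Mcl1 fell by 1.04 ± 0.03 (log2, SE) with anti-IL-1b against untreated (adjusted p = 2.19e-29), a 2.06-fold lower level. With MCC950 it fell by 0.83 ± 0.03 (adjusted p = 5.02e-26), a 1.78-fold lower level. The difference between the agents, anti-IL-1b over MCC950, was -0.21 ± 0.03 (adjusted p = 2.16e-07). The calls held in all 17 alternative settings, with values of -1.06 to -0.88 for anti-IL-1b and -0.84 to -0.72 for MCC950. The stress genes fell in the same libraries, to 7446 CPM or less against 27278 CPM or more in untreated libraries; their part in the Mcl1 result was not tested.

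Bcl2, the survival gene that IL-7 signals sustain in naive T cells, rose with the antibody. Bcl2 (chr1:106538178-106714274, - strand) had 289.9, 301 and 306 CPM in the anti-IL-1b libraries, 266, 273 and 258 CPM in the MCC950 libraries and 258, 263 and 254 CPM in the untreated libraries. All anti-IL-1b libraries lay above all others, while MCC950 and untreated libraries overlapped. Bcl2 rose by 0.21 ± 0.03 with anti-IL-1b against untreated (adjusted p = 3.95e-06), a 1.16-fold higher level. For MCC950 against untreated the difference was 0.04 ± 0.03, with a 95% interval of -0.03 to 0.11 (adjusted p = 0.381). Anti-IL-1b exceeded MCC950 by 0.17 ± 0.03 (adjusted p = 4.09e-04). On the log2(TPM + 1) scale the rise with anti-IL-1b was 0.43, where the median of all genes was 0.14, and library totals gave a call with MCC950 as well, at 0.15. The antisense gene D630008O14Rik overlaps Bcl2, and reads of the pair cannot be told apart if strand was not used in counting. B cells express Bcl2 too, and their markers were higher in MCC950 as well as in anti-IL-1b libraries; their part in the Bcl2 values was not tested.

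Bcl2l1, which encodes BCL-XL, was low in resting T cells here and did not pass the test in any comparison. Bcl2l1 (chr2:152780668-152831728, - strand) had 13.3, 10.8 and 13.7 CPM in the anti-IL-1b libraries, 14.4, 13.8 and 13.7 CPM in the MCC950 libraries and 12.9, 13.3 and 11.7 CPM in the untreated libraries. The anti-IL-1b libraries overlapped the untreated ones, and the MCC950 libraries all lay slightly above them. The 95% interval of the log2 difference from untreated ran from -0.27 to 0.26 with anti-IL-1b (adjusted p = 0.982) and from -0.12 to 0.41 with MCC950 (adjusted p = 0.430).

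Among the BH3-only genes, Pmaip1 had the largest fitted fall of the 10 genes in either treated group. Pmaip1 encodes NOXA, which binds MCL1 in particular. Pmaip1 (chr18:66458533-66465565, + strand) had 1.69, 1.48 and 1.12 CPM in the anti-IL-1b libraries, 1.52, 1.64 and 1.04 CPM in the MCC950 libraries and 6.22, 6.88 and 6.96 CPM in the untreated libraries. The treated groups overlapped each other and lay far below every untreated library. These levels rest on 69 counts over the 3 anti-IL-1b libraries, 76 over the MCC950 libraries and 374 over the untreated libraries. The log2 change was -2.22 ± 0.29 with anti-IL-1b (adjusted p = 7.13e-08) and -2.25 ± 0.29 with MCC950 (adjusted p = 4.07e-08), or 4.65-fold and 4.76-fold lower. On the log2(TPM + 1) scale, which understates the change of low genes, the falls were still called at -1.18 and -1.30. Anti-IL-1b and MCC950 differed by 0.03 ± 0.32 (adjusted p = 0.969), with a wide 95% interval of -0.59 to 0.66.

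Bbc3 encodes PUMA, a p53 and FOXO target that binds all the survival proteins. Bbc3 (chr7:16308393-16318205, + strand) had 10.4, 12.1 and 10.3 CPM in the anti-IL-1b libraries, 14.2, 14.1 and 12.5 CPM in the MCC950 libraries and 23.0, 19.8 and 23.6 CPM in the untreated libraries. No group overlapped another, in the same order as for Mcl1. Bbc3 fell by 1.02 ± 0.13 with anti-IL-1b (adjusted p = 2.25e-08) and by 0.71 ± 0.12 with MCC950 (adjusted p = 1.39e-05) against untreated. The difference of anti-IL-1b from MCC950, -0.31 ± 0.13, did not pass (adjusted p = 0.114; 95% interval -0.57 to -0.06).

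Bad, whose protein binds BCL2 and BCL-XL when it is not phosphorylated, rose slightly. Bad (chr19:6941861-6951899, + strand) had 8.50, 9.28 and 10.8 CPM in the anti-IL-1b libraries, 10.4, 9.51 and 10.5 CPM in the MCC950 libraries and 6.77, 7.17 and 7.43 CPM in the untreated libraries. Both treated groups lay above the untreated one and overlapped each other. The log2 change was 0.41 ± 0.16 with anti-IL-1b (adjusted p = 0.0430) and 0.51 ± 0.16 with MCC950 (adjusted p = 0.0109). The call with anti-IL-1b held in 8 of 17 alternative settings; it was lost without any 1 of the untreated libraries (adjusted p = 0.1, 0.0787 and 0.0606 without replicates 1, 2 and 3) and without anti-IL-1b replicate 2 or 3 (0.0706 and 0.188). On the log2(TPM + 1) scale neither change was called, at 0.27 (adjusted p = 0.234) and 0.23 (adjusted p = 0.308). Gpr137 overlaps Bad on the opposite strand.

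Bcl2l11, whose product BIM is the main BH3-only killer of naive T cells, did not pass the test. Bcl2l11 (chr2:128126038-128162547, + strand) had 75.8, 78.6 and 68.5 CPM in the anti-IL-1b libraries, 69.9, 73.8 and 74.8 CPM in the MCC950 libraries and 82.8, 75.0 and 79.2 CPM in the untreated libraries. The anti-IL-1b libraries overlapped the untreated ones, and the MCC950 libraries all lay below them, the nearest by a small margin. The log2 differences from untreated were -0.09 ± 0.06 with anti-IL-1b (adjusted p = 0.290; 95% interval -0.21 to 0.03) and -0.12 ± 0.06 with MCC950 (adjusted p = 0.134; interval -0.23 to 0.00).

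Counts and TPM gave different values for Bcl2l11. RSEM's effective length of the gene, a mean over its transcripts weighted by their estimated shares, enters TPM as a divisor and was not the same in the groups. It was 3616, 3678 and 3186 bases in the anti-IL-1b libraries, 3738, 3874 and 3732 bases in the MCC950 libraries and 2687, 3164 and 3043 bases in the untreated libraries. Every treated library was longer than every untreated one. The annotation of the files lists 8 transcripts of 391 to 5036 bases for the gene, and the split among them is RSEM's estimate, with no test here. In limma on log2(TPM + 1), Bcl2l11 was called with MCC950 at -0.37 (adjusted p = 0.0178). The level was 31.9 ± 0.551, 27.5 ± 1.01 and 36.0 ± 4.87 TPM in anti-IL-1b, MCC950 and untreated libraries (SD, n = 3 each).

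Of the effectors, which form the pore in the mitochondrial membrane, Bax rose with MCC950, and the agents differed from each other. Bax (chr7:45461697-45466898, - strand) had 64.5, 60.6 and 60.6 CPM in the anti-IL-1b libraries, 82.6, 75.3 and 76.8 CPM in the MCC950 libraries and 63.0, 59.8 and 67.0 CPM in the untreated libraries. The MCC950 libraries stood above all others, which overlapped. Bax rose by 0.31 ± 0.06 with MCC950 (adjusted p = 1.07e-04), whereas with anti-IL-1b the difference from untreated was -0.03 ± 0.06 (adjusted p = 0.756; 95% interval -0.15 to 0.09). Anti-IL-1b over MCC950 was -0.34 ± 0.06 (adjusted p = 1.41e-04), a call that held in all 17 settings at -0.37 to -0.26. The gene Gm45808 overlaps Bax on the same strand, so their reads could be divided in counting.

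Bak1, the second effector, lay just short of the threshold. Bak1 (chr17:27019810-27029009, - strand) had 38.4, 29.4 and 30.4 CPM in the anti-IL-1b libraries, 36.3, 32.0 and 29.6 CPM in the MCC950 libraries and 23.3, 30.2 and 28.0 CPM in the untreated libraries. All groups overlapped. The log2 differences from untreated were 0.27 ± 0.11 with anti-IL-1b (adjusted p = 0.0501) and 0.26 ± 0.10 with MCC950 (adjusted p = 0.0516). A call was made in 10 of 17 alternative settings for anti-IL-1b and in 9 of 17 for MCC950, and the value turned on single libraries: without anti-IL-1b replicate 1 it was 0.13 (adjusted p = 0.405), and without untreated replicate 1 it was 0.18 (adjusted p = 0.232) for anti-IL-1b and 0.17 (0.242) for MCC950. Calls came up without untreated replicate 2 (adjusted p = 0.0209 for anti-IL-1b and 0.0210 for MCC950), anti-IL-1b replicate 2 (0.0265) or 3 (0.0388), or MCC950 replicate 3 (0.0281). Ggnbp1 overlaps Bak1 on the opposite strand.

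Fasl, which activated T cells and NK cells use to kill FAS-bearing cells, was low throughout and lower in both treated groups. Fasl (chr1:161780689-161788495, - strand) had 3.72, 4.77 and 3.81 CPM in the anti-IL-1b libraries, 6.59, 4.97 and 5.54 CPM in the MCC950 libraries and 14.6, 15.5 and 13.3 CPM in the untreated libraries. The groups did not overlap, with anti-IL-1b lowest. Fasl fell by 1.82 ± 0.18 with anti-IL-1b (adjusted p = 5.72e-11) and by 1.34 ± 0.17 with MCC950 (adjusted p = 2.52e-08). The difference of anti-IL-1b from MCC950, -0.47 ± 0.19, did not pass (adjusted p = 0.0902). On the log2(TPM + 1) scale the falls were called at -1.14 and -1.10. Of 8 CD8 and NK cell markers tested, 4 were higher and 1, Prf1, was lower with anti-IL-1b, and 3 were higher and 0 lower with MCC950. Among them, and named after their values were seen, Cd8a averaged 19.4, 19.7 and 0.970 CPM and Prf1 36.9, 42.5 and 45.9 CPM in anti-IL-1b, MCC950 and untreated libraries. The part of such cells in the Fasl result was not tested.

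Compared per transcript length, the summed survival genes, of which Mcl1 is the largest part, held a smaller share of the set in the treated groups. In TPM, Mcl1, Bcl2 and Bcl2l1 summed to 316 ± 6.11, 329.7 ± 4.76 and 496 ± 0.943 TPM in anti-IL-1b, MCC950 and untreated libraries, which is 58.9%, 57.4% and 68.6% of the 10 genes. The effectors Bax and Bak1 summed to 151 ± 5.76, 175 ± 8.76 and 134 ± 6.29 TPM, or 28.1%, 30.4% and 18.6%. The BH3-only genes summed to 65.5 ± 1.35, 65.2 ± 4.68 and 81.1 ± 5.98 TPM, or 12.2%, 11.3% and 11.2%. The set as a whole held 537 ± 8.0, 575 ± 9.77 and 723 ± 6.65 TPM. Mcl1 itself stood at 234 ± 4.14, 260.0 ± 4.29 and 433 ± 0.695 TPM. The other survival genes did not share this fall. The mean TPM of Bcl2 was higher in both treated groups, but edgeR's fit on counts called its rise with anti-IL-1b only. With MCC950 that fit gave 0.04 ± 0.03 for Bcl2 (adjusted p = 0.381). Bcl2l1 stood at 9.15 ± 1.19, 9.99 ± 0.448 and 9.34 ± 1.26 TPM. A lower total by itself also raises the percentage of the other roles. These sums are descriptions with no test, and TPM, a share of each library, depends on what else the library holds.

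**Figure D2:**
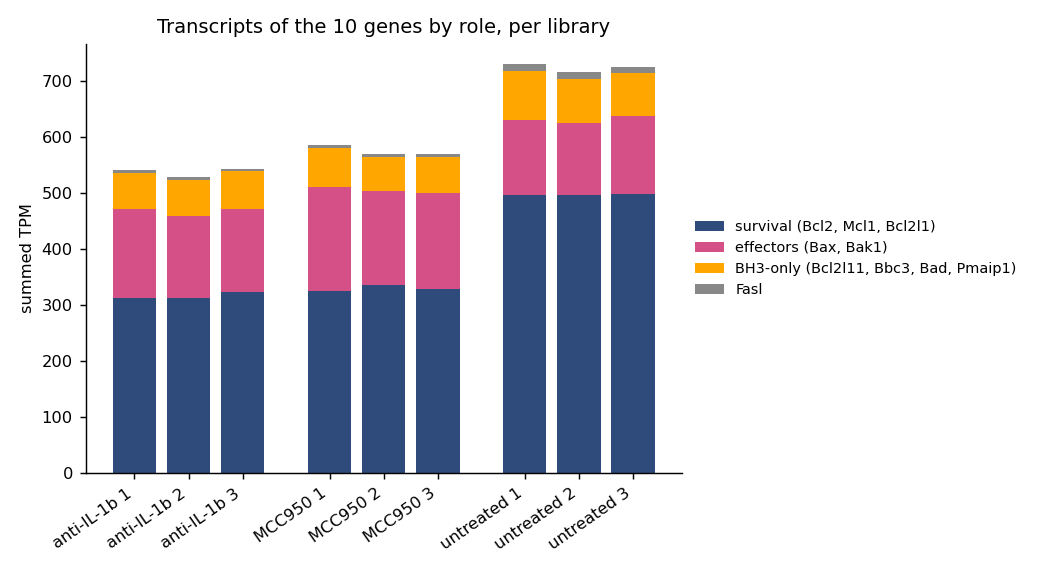
Summed TPM (y axis) of the 10 genes in each of the 9 libraries (x axis), stacked by role. Survival genes make up about 496 TPM in each untreated library, while the bars for the effectors are taller in anti-IL-1b and MCC950 libraries, at means of 151 and 175 TPM against 134 TPM in untreated libraries. On the log2(TPM + 1) scale the median change of all genes was itself 0.14 with anti-IL-1b and 0.09 with MCC950. With anti-IL-1b on that scale, Bax changed by 0.12, not called, and Bak1 by 0.39, called.

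Within each group the order of levels began with Mcl1, Bax and Bcl2, whose TPM ranges did not touch. Bcl2 stood at 72.8 ± 1.92, 59.7 ± 1.56 and 53.9 ± 0.468 TPM and Bax at 126 ± 2.83, 152 ± 7.05 and 116 ± 7.09 TPM in anti-IL-1b, MCC950 and untreated libraries. Bbc3 came ahead of Bak1 and Bad in untreated libraries, at 27.0 ± 0.741 TPM beside 18.6 ± 0.818 TPM for Bak1 and 14.1 ± 3.05 TPM for Bad. In anti-IL-1b libraries it came behind both, at 15.3 ± 0.438 TPM beside 24.8 ± 3.05 and 17.0 ± 0.941 TPM. In MCC950 libraries Bbc3, at 19.9 ± 2.51 TPM, was not separated beyond the spread from Bak1 (23.3 ± 1.71 TPM) or Bad (16.7 ± 2.38 TPM). Pmaip1 was the lowest in every group, at 1.25 ± 0.433, 1.09 ± 0.467 and 4.06 ± 0.299 TPM.

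Ratios within a library do not depend on the scaling between libraries. The Mcl1 to Bcl2 ratio of TPM values was 3.15 to 3.30 in anti-IL-1b, 4.29 to 4.48 in MCC950 and 7.98 to 8.11 in untreated libraries. On the log2 scale its difference from untreated was -1.32 with anti-IL-1b and -0.88 with MCC950 (two-sided exact permutation test, p = 0.1 for each, the smallest that 3 libraries against 3 can give). For Bcl2l11 to Bcl2 the differences were -0.60 and -0.52 in TPM (exact permutation p = 0.1 for each), but -0.30 and -0.16 in counts. Bax to Bcl2 differed from untreated by -0.31 with anti-IL-1b and by 0.24 with MCC950 (exact permutation p = 0.1 for each). Bcl2l1 to Bcl2 differed by -0.46 with anti-IL-1b (exact permutation p = 0.1) and by -0.04 with MCC950 (exact permutation p = 0.9). The design cannot reach 0.05 by this test.

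**Figure D3:**
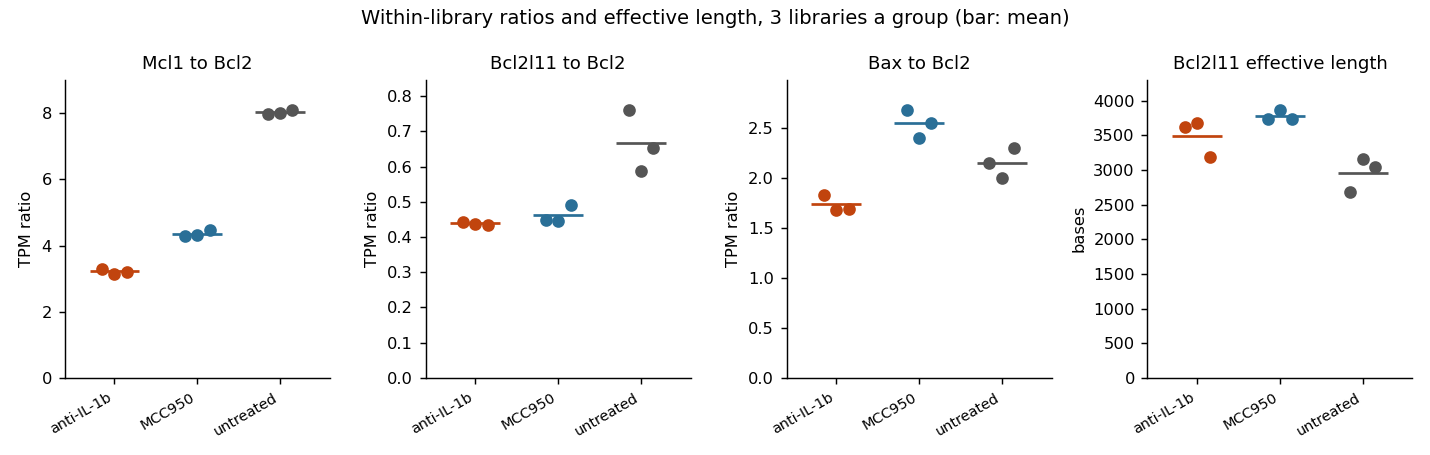
Ratios of TPM values within each library and the RSEM effective length of Bcl2l11 in bases, with points for libraries and bars for the means of 3 libraries in each group; y axes start at 0. The Mcl1 to Bcl2 ratio keeps the 3 groups apart, and the Bcl2l11 effective length is 3186 bases or more in treated libraries against 3164 bases or less in untreated libraries.

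Other genes of the pathway were read from 4 lists, whose counts are descriptions without a test of the list. Over all tested genes 34.0% were called with anti-IL-1b, 15.4% as higher and 18.5% as lower. With MCC950 36.8% were called, 17.7% as higher and 19.1% as lower. Of 16 other BCL2 family genes 11 were tested: 3 rose and 3 fell with anti-IL-1b, and 2 rose and 2 fell with MCC950, with medians of -0.17 and 0.01. Bcl2a1b, a copy of the survival gene A1, fell by 0.86 ± 0.19 with anti-IL-1b (adjusted p = 4.44e-04) and by 0.56 ± 0.19 with MCC950 (adjusted p = 0.0174); its near-identical copies Bcl2a1a and Bcl2a1d make its counts uncertain, and the MCC950 call was lost without untreated replicate 2 or 3 or MCC950 replicate 2 or 3 (adjusted p = 0.0592, 0.0503, 0.0851 and 0.0549). Bmf, a BH3-only gene, averaged 2.54 ± 0.924, 3.87 ± 1.07 and 5.71 ± 1.13 CPM in anti-IL-1b, MCC950 and untreated libraries and fell with anti-IL-1b by 1.16 ± 0.27 (adjusted p = 8.89e-04), while with MCC950 its value of -0.56 ± 0.26 did not pass (adjusted p = 0.0941). It passed with MCC950 without untreated replicate 2 (adjusted p = 0.0494) or MCC950 replicate 3 (0.0413). Bcl2l2 (BCL-W), a survival gene, averaged 3.38 ± 0.404, 1.98 ± 0.320 and 1.25 ± 0.567 CPM and rose with anti-IL-1b by 1.42 ± 0.37 (adjusted p = 0.00258), with 0.66 ± 0.38 for MCC950 (adjusted p = 0.182; 0.33 without untreated replicate 3 and 0.98 without untreated replicate 2, neither called). Bnip3l, a mitophagy receptor gene, fell by 0.17 ± 0.04 and by 0.20 ± 0.04 (adjusted p = 0.00205 and 2.64e-04). The list's counts turned on single libraries: with anti-IL-1b 1 rose without anti-IL-1b replicate 1 or 2, and with MCC950 1 rose without untreated replicate 3 or MCC950 replicate 3, 0 rose without MCC950 replicate 2, and 1 fell without untreated replicate 3 or MCC950 replicate 2. With library totals 0 fell with MCC950. Between anti-IL-1b and MCC950, 0 of the 11 genes were called by edgeR, beside 13.2% of all tested genes, and likewise 0 by DESeq2 and limma-voom. Of the 11, 2 had an unadjusted p under 0.05, Bcl2l2 (0.0405) and Bmf (0.0383).

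Downstream of mitochondria, 2 of 17 apoptosome and caspase genes rose and 3 fell with anti-IL-1b, and 3 rose and 4 fell with MCC950. These counts stand beside 15.4% higher and 18.5% lower over all tested genes with anti-IL-1b, and 17.7% and 19.1% with MCC950. Cycs, which encodes cytochrome c, averaged 42.8, 43.8 and 58.5 CPM in anti-IL-1b, MCC950 and untreated libraries, with log2 changes of -0.45 ± 0.07 (adjusted p = 4.51e-06) and -0.42 ± 0.07 (adjusted p = 1.27e-05). The ubiquitin ligase genes Birc2 and Birc3, which restrain TNF-induced death, changed by -0.30 ± 0.06 and -0.26 ± 0.05 with anti-IL-1b and by -0.16 ± 0.05 and -0.41 ± 0.05 with MCC950, all called. The Birc2 call with MCC950 was lost without untreated replicate 3 (adjusted p = 0.145), MCC950 replicate 1 (0.152) or MCC950 replicate 3 (0.0963). Htra2, a mitochondrial protease gene whose product blocks caspase inhibitors once released, rose by 0.28 ± 0.10 with anti-IL-1b (adjusted p = 0.0223; lost without untreated replicate 2 or 3 or anti-IL-1b replicate 1 or 2, at adjusted p = 0.0693, 0.0557, 0.0883 and 0.0601) and by 0.37 ± 0.10 with MCC950 (adjusted p = 0.00249). The number of genes that rose with anti-IL-1b turned on the scaling, at 6 with upper-quartile factors and 7 with library totals, and was 1 without untreated replicate 2 or anti-IL-1b replicate 1 or 2. With MCC950, 7 rose with library totals, and 2 fell with either upper-quartile factors or library totals. Also with MCC950, 1 rose without untreated replicate 1 or 2 and 5 without MCC950 replicate 3, and 2 fell without MCC950 replicate 1 or 3.

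In the death receptor pathway, 7 of 13 genes fell and 1 rose with anti-IL-1b, and 4 fell and 3 rose with MCC950. Beside them, 18.5% of all tested genes were lower and 15.4% higher with anti-IL-1b, and 19.1% and 17.7% with MCC950. The largest of the named changes was in Tnfrsf10b, the receptor gene for TRAIL, at 6.33 ± 0.288, 7.73 ± 2.07 and 26.7 ± 2.75 CPM in anti-IL-1b, MCC950 and untreated libraries. It fell by 2.08 ± 0.16 with anti-IL-1b (adjusted p = 4.44e-14) and by 1.78 ± 0.15 with MCC950 (adjusted p = 1.25e-12). Tnfrsf1a, the TNF receptor 1 gene, fell by 0.42 ± 0.09 with anti-IL-1b (adjusted p = 2.46e-04), and for MCC950 its value of -0.17 ± 0.08 did not pass (adjusted p = 0.122; 0.0171 without untreated replicate 2). Cflar, which encodes the caspase-8 inhibitor FLIP, changed by -0.12 ± 0.04 with anti-IL-1b (adjusted p = 0.00660; 0.0624 without anti-IL-1b replicate 1) and by -0.22 ± 0.04 with MCC950 (adjusted p = 5.13e-06), but by 0.14 and 0.09, not called, on the log2(TPM + 1) scale. Ripk1, a kinase gene of TNF signalling, fell by 0.34 ± 0.07 with MCC950 (adjusted p = 2.27e-04), and its fall by 0.19 ± 0.07 with anti-IL-1b (adjusted p = 0.0330) was lost without untreated replicate 1 or 2 or anti-IL-1b replicate 1 or 2 (adjusted p = 0.0876, 0.187, 0.0984 and 0.170). Fas, the receptor of FASL, named here after its values were seen, averaged 18.3, 18.0 and 20.9 CPM and did not pass in either comparison (adjusted p = 0.248 and 0.178). With upper-quartile factors or library totals 3 genes of the list fell with anti-IL-1b, and 4 fell without untreated replicate 1 or anti-IL-1b replicate 1 or 2. With MCC950, 1 rose without MCC950 replicate 2.

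Of 21 tested genes that regulate the family or its proteins, 13 fell and 3 rose with anti-IL-1b, and 13 fell and 2 rose with MCC950. The medians were -0.19 and -0.19. Over all tested genes 18.5% were called lower and 15.4% higher with anti-IL-1b, and 19.1% and 17.7% with MCC950. This list was chosen with earlier results of these data known, so its excess of falls is a description and not a test. With library totals 8 genes of the list fell with anti-IL-1b. With MCC950 1 rose without untreated replicate 1 or 2 or MCC950 replicate 3, and 0 rose without MCC950 replicate 2. Bag3, a co-chaperone gene induced by heat shock whose protein stabilizes survival proteins, averaged 8.80 ± 1.91, 10.1 ± 0.765 and 84.0 ± 5.24 CPM in anti-IL-1b, MCC950 and untreated libraries. It fell by 3.25 ± 0.10 with anti-IL-1b (adjusted p = 2.71e-25) and by 3.06 ± 0.10 with MCC950 (adjusted p = 6.54e-25). Egr2, a T cell receptor response gene, fell by 1.55 ± 0.14 and by 1.46 ± 0.13 (adjusted p = 4.03e-12 and 1.07e-11). Ddit3, the stress factor gene CHOP, fell by 0.96 ± 0.09 and by 0.82 ± 0.09 (adjusted p = 2.12e-11 and 5.73e-10). Dynll1, a dynein light chain gene whose protein sequesters BIM, averaged 71.7 ± 2.66, 95.5 ± 5.49 and 124 ± 3.57 CPM. It fell by 0.79 ± 0.05 with anti-IL-1b (adjusted p = 1.20e-15) and by 0.38 ± 0.05 with MCC950 (adjusted p = 1.18e-07), and anti-IL-1b lay below MCC950 by -0.41 ± 0.05 (adjusted p = 3.18e-07). Il7r, the IL-7 receptor gene, also named after its values were seen, averaged 649 CPM in anti-IL-1b and 561 CPM in MCC950 libraries, against 585 CPM in untreated libraries, and was higher with anti-IL-1b than with MCC950 by 0.21 ± 0.03 (adjusted p = 5.38e-06). The stress genes listed above moved with this group as well, and their part was not tested. On the log2(TPM + 1) scale the falls in the 4 lists, in the order given here, numbered 1, 0, 1 and 6 with anti-IL-1b and 1, 0, 1 and 7 with MCC950. The calls of Bnip3l, Cycs, Birc2, Birc3, Cflar and Ripk1 in both treated groups, and of Bmf, Htra2 and Tnfrsf1a with anti-IL-1b, were not made on that scale.

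**Figure D4:**
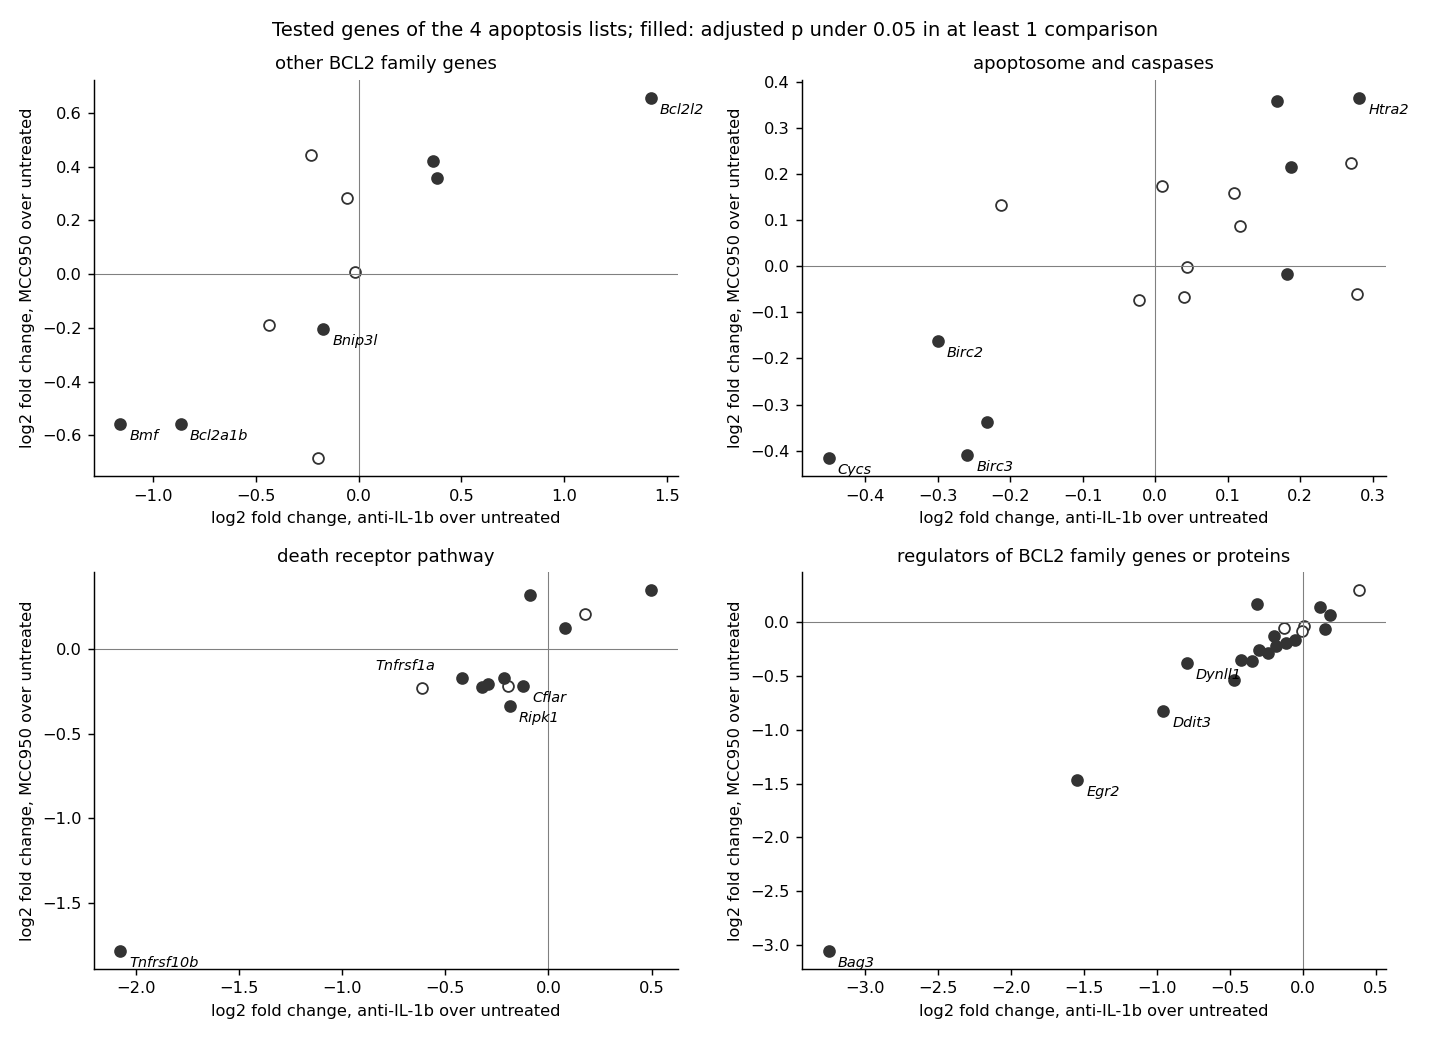
Log2 fold changes of the tested genes of the 4 lists, with anti-IL-1b over untreated on the x axis and MCC950 over untreated on the y axis; both axes use the same untreated libraries, panels differ in range, and filled points have an adjusted p under 0.05 in at least 1 comparison. Bag3 (-3.25 and -3.06) and Tnfrsf10b (-2.08 and -1.78) lie farthest from 0.

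Pmaip1 and Fasl were the members whose log2 fold changes were at least 1 in size in both treated groups. Each was set against a pool of 9348 protein-coding genes, leaving out the gene itself where the pool held it. The measure was the root mean square difference of centred log2 CPM over the 9 libraries. Nearest to Pmaip1 were Acot2 (0.125), an acyl-CoA thioesterase gene, Crem (0.129), a cAMP-response factor gene, and Jund (0.135), a gene of an AP-1 subunit. Jund, for example, averaged 304 ± 25.8, 299.99 ± 1.32 and 1127 ± 13.3 CPM in anti-IL-1b, MCC950 and untreated libraries. The profiles were taken with 0.5 CPM added, which understates the change of low genes such as Pmaip1. With anti-IL-1b the fitted log2 changes of Acot2, Crem and Jund were -1.89, -1.86 and -1.89, against -2.22 for Pmaip1. Nearest to Fasl were Cacybp (0.133), whose product binds calcyclin, Mafk (0.135), a small Maf factor gene, and Sertad1 (0.152), a cell cycle regulator gene. Sertad1 averaged 18.3 ± 0.986, 26.5 ± 1.01 and 68.1 ± 3.23 CPM in the same order of groups.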

How the data were processed

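Poly(A) RNA was measured in 9 libraries, grouped by the labels. Reads were aligned and quantified with STAR and RSEM on mm10, per the submitters' processing notes, with versions and strand setting not given in the sources used here. The deposited expected counts are RSEM estimates per gene, not normalized, per the file headers. TPM values, as deposited, are scaled to transcript effective length and library, per the file headers. RNA was extracted with RNAiso PLUS and made into directional libraries, per the labels' protocols.

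All 55487 IDs were looked up in GENCODE M21 (GRCm38, the build of mm10); 99.4% had a symbol, and no library had more than 0.0452% of its counts in the 346 without. Ddit3 has a pair of IDs, and the one with counts was used. Expected counts were rounded and fitted in edgeR 4.0.16 (R 4.3.3) by robust quasi-likelihood, with TMM factors (1.031 to 1.035 in anti-IL-1b, 1.023 to 1.024 in MCC950 and 0.945 to 0.947 in untreated libraries), filterByExpr (13374 genes) and 3 group means, two-sided, with Benjamini-Hochberg adjustment over all genes. The procedure was tested on simulated data. CPM is counts scaled to TMM-adjusted library totals. DESeq2 1.42.0 and limma 3.58.1, 3 other scalings, 2 other filters, a log2(TPM + 1) fit, a replicate block, a fit without the robust option, 6-library fits and leaving out each library were alternatives. Ratios used TPM and exact permutation tests. No 2 libraries were duplicates (chi-square per degree of freedom of 3.73 or more). Intervals cover the spread between libraries only.

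Members and lists were chosen with earlier results of these data known. Named were all members, up to 4 genes of each pathway list with the smallest p over both treated groups, and for members past a log2 change of 1 in both the 3 nearest of the protein-coding genes whose mean log2 CPM was 2 or more. The nearest profiles used a pseudocount of 0.5 CPM.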

Additional observations from a re-analysis of the deposited data

How the results depend on the processing

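The calls of Mcl1, Bbc3, Pmaip1 and Fasl in both treated groups, of Bcl2 with anti-IL-1b and of Bax with MCC950 held in all 17 alternative settings; the cause of the shifts that follow was not tested. The number of members higher with anti-IL-1b was 1 with limma-voom and 1 to 2 over left-out libraries, and with MCC950 it was 4 with library totals and 2 to 3 over left-out libraries. On the log2(TPM + 1) scale 3153 genes were called with MCC950 and 592 between the agents. With ratios of expected counts in place of TPM, the log2 difference from untreated was -0.30 (anti-IL-1b) and -0.16 (MCC950) for Bcl2l11 to Bcl2, and with anti-IL-1b -1.25 for Mcl1 to Bcl2 and -0.22 for Bcl2l1 to Bcl2. Over left-out libraries these TPM ratio differences ran from -0.68 to -0.49 and from -0.61 to -0.42, from -1.34 to -1.30 and from -0.55 to -0.34. Uncalled values near 0 changed sign for anti-IL-1b against untreated: Bcl2l1 to 0.0033 with RLE factors, 0.0034 with DESeq2, 0.0023 with 6 libraries, 0.0449 with upper-quartile factors, 0.12 with library totals and -0.0698 to 0.0939 over left-out libraries; Bax to 0.0193 with upper-quartile factors, 0.0964 with library totals, 0.12 in TPM and -0.0719 to 0.0114 over left-out libraries; and Bcl2l11 to 0.0405 with library totals. For called genes of the lists, Cflar turned to 0.0048 with library totals and to 0.14 in TPM, Bnip3l to 0.0101 and Birc3 to 0.0148 in TPM, and Cflar with MCC950 to 0.0926 in TPM, none of them called. For anti-IL-1b over MCC950, TPM gave 0.0368 for Bad, 0.29 for Bmf, 0.0658 for Cycs and 0.12 for Egr2, and over left-out libraries Bcl2l11 ran from -0.0139 to 0.0825, Pmaip1 from -0.14 to 0.18, Bak1 from -0.13 to 0.0894, Bnip3l from -0.0237 to 0.0615, Cycs from -0.0967 to 0.037 and Egr2 from -0.25 to 0.0301. Any pairing by the labels' replicate numbers was weak. Correlations ran from -0.01 to 0.06 between same-numbered libraries and from -0.057 to 0.025 between differently numbered ones. With the replicate number as a block 4483, 4855 and 1704 genes were called with anti-IL-1b, with MCC950 and between the agents, and no member call changed. Depth limits Pmaip1 most, at 69 and 76 counts in the anti-IL-1b and MCC950 groups.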
